A study of Mus musculus with 10 samples.

Results

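The 10 genes described here encode RNA-binding proteins that choose exons in muscle: Rbm20, Rbm24, Rbfox1, Rbfox2, Mbnl1, Mbnl2, Celf1, Celf2, Ptbp1 and Qk. They were taken by symbol, whatever their values, and are 10 of the 25239 gene symbols in the tables. Their transcripts were measured in cardiomyocytes, the contractile muscle cells of the heart, from the atria and from the ventricles of wild-type mice. Each chamber had 5 libraries of total RNA, numbered replicates 1 to 5. The labels used here state no age, sex, strain or method of cell isolation, and do not say whether libraries of a chamber came from separate animals. The p-values therefore reflect variation among libraries, some of which may be technical.

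Splicing regulators bind short sequence motifs in or beside an exon of a precursor RNA and promote or block its inclusion in the messenger RNA. In the heart they set which versions of titin, calcium channels and other contractile or calcium-handling proteins a cell makes, and several of them change level as the heart matures. Mbnl and Celf proteins are known for opposing effects on the same exons and for their part in myotonic dystrophy, and mutations of human RBM20 cause dilated cardiomyopathy. The tables hold 1 value per gene, so they show how much RNA of each regulator was present and nothing about which exons were used.

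The 10 regulators form 3 pairs of close relatives and 4 genes without a relative in the set. The coding sequences of the relatives were compared for runs of bases that a read could not tell apart. Below, 120 bases of each relative's coding sequence are shown around the longest run of identical bases, 5′ to 3′ on the transcript, with capitals where the relatives differ. The sequences are those of GENCODE release M21 on GRCm38 (mm10), the build of the files. The first pair is the Rbfox genes, whose stretch codes for part of the RNA-recognition motif that binds UGCAUG.
Rbfox1: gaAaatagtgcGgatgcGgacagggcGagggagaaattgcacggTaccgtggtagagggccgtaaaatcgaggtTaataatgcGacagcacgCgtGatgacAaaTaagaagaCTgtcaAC
Rbfox2: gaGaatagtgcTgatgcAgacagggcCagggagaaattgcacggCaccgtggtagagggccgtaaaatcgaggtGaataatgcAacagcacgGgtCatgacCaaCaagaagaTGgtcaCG
Here 15 of 120 bases differed and the longest identical run was 29 bases. The second pair is the Mbnl genes, whose stretch codes for part of a zinc-finger region that binds RNA.
Mbnl1: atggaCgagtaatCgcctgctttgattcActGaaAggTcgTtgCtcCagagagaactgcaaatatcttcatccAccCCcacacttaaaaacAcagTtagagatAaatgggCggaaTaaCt
Mbnl2: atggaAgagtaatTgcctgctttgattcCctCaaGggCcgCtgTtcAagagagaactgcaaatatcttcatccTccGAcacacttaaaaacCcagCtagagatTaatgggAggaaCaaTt
In the Mbnl stretch 18 bases differed and the longest identical run was 26 bases. The third pair is the Celf genes, whose stretch codes for part of the last RNA-recognition motif.
Celf1: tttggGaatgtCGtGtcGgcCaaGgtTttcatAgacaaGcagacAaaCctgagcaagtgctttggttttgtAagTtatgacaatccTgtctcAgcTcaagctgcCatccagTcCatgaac
Celf2: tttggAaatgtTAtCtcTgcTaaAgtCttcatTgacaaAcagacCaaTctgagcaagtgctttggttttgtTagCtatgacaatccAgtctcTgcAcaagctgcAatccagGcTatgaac
In the Celf stretch 20 bases differed and the longest identical run was 23 bases. Over all annotated transcripts of the 10 genes, no run of 50 bases was shared between any members of the set. A read of that length without errors therefore fits at most a single member of the set.

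The genes lie apart from each other in the genome. On GRCm38 the whole genes, introns included, span chr19:53677306-53867080 (+ strand) for Rbm20 (ENSMUSG00000043639) and chr13:46418434-46431095 (+) for Rbm24 (ENSMUSG00000038132). Rbfox1 (ENSMUSG00000008658) spans chr16:5885355-7411526 (+) and Rbfox2 (ENSMUSG00000033565) chr15:77078990-77307004 (−). Mbnl1 (ENSMUSG00000027763) spans chr3:60472830-60629750 (+) and Mbnl2 (ENSMUSG00000022139) chr14:120275669-120431697 (+). Celf1 (ENSMUSG00000005506) spans chr2:90940382-91019497 (+) and Celf2 (ENSMUSG00000002107) chr2:6539694-7509563 (−). Ptbp1 (ENSMUSG00000006498) spans chr10:79854427-79864771 (+) and Qk (ENSMUSG00000062078) chr17:10202601-10319854 (−). Of the 10, only Ptbp1 shared exon bases with another gene of the tables. These were 295 bases, 6.22% of its exon bases, with E130317F20Rik, and 251 bases, 5.30%, with Plppr3, both on the opposite strand. The overlapping genes averaged 30.9 and 22.1 normalized reads over the 10 libraries, where Ptbp1 averaged 281. The strand setting of the counting is not given in the sources used here, so a part of the Ptbp1 value is uncertain. Of the 50-base runs of its transcripts, 18.3% also occurred in other annotated genes, against 6.96% for Celf2, 0.387% for Mbnl2, 0.133% for Qk, 0.108% for Mbnl1, 0.0803% for Celf1 and 0% for the other 4 regulators.

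Values are given as normalized reads, the reads of a gene divided by a size factor for the library. The libraries differed in depth: replicates 1 and 2 of both chambers held 1790402 to 4445287 reads and replicates 3 to 5 held 11163805 to 12842635. Replicates 3 to 5 also held 23.1% to 29.8% of reads on the 45S ribosomal RNA precursor Rn45s, against 0.215% to 0.480% in replicates 1 and 2, a division absent from the labels that is called library set here. The chambers matched their labels. The summed level of 8 atrial cardiomyocyte markers was 135511 to 451061 normalized reads in atrial and 2908 to 28225 in ventricular libraries, and that of 6 ventricular markers was 5546 to 8303 in atrial and 147467 to 205443 in ventricular libraries. The 8 cardiomyocyte markers summed to 441338 to 821848 in atrial replicates 1 and 2 and 333051 to 340239 in atrial replicates 3 to 5. Their sums were 546205 to 697683 in ventricular replicates 1 and 2 and 355525 to 415766 in ventricular replicates 3 to 5. Ttn, the titin gene, is 1 of these 8. Its values, given with the target genes below, were far higher in replicates 1 and 2, above all in replicate 1 of each chamber. A part of the gap between the sums is therefore that of a single gene. Markers of other cells of the heart were present too. The 8 fibroblast markers summed to 21312 to 36361 in atrial and 9165 to 63474 in ventricular libraries, and 8 endothelial markers to 1226 to 4227 in atrial and 292 to 1543 in ventricular libraries. The sums of 8 smooth muscle and pericyte markers were 2346 to 7365 in atrial and 11676 to 17737 in ventricular libraries, and those of 8 epicardial markers 2941 to 6960 in atrial and 713 to 2042 in ventricular libraries. The 8 immune markers summed to 76.6 to 143 in atrial and 21.7 to 128 in ventricular libraries, the 8 neuronal markers to 48.3 to 93.8 in atrial and 32.7 to 69.2 in ventricular libraries, and no marker gene stood at 0 in every library.

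All 10 regulators were present in every library of both chambers, and no single one separated the chambers. Chamber means differed by at most 1.42-fold, seen for Rbfox1, and the 5 atrial and 5 ventricular values overlapped for all 10 genes, where the values of 14.4% of all tested genes did not overlap. By limma's moderated test on log2(normalized reads + 1), 0 of the 10 regulators passed an adjusted p of 0.05. The background was 1824 of 12422 tested genes, 14.7%, 8.12% toward atrial and 6.56% toward ventricular cells. When libraries were scaled to equal totals, the split of these calls was 1014 atrial and 539 ventricular, against 1009 atrial and 815 ventricular under the deposited scaling. At an unadjusted p under 0.05 limma passed 2 regulators, Rbfox2 and Celf2, where it passed 3245 of 12422 tested genes. On the recovered reads, edgeR's quasi-likelihood test called 0 and DESeq2 called 1, Rbfox2, at an adjusted p of 0.0123. The shares of all tested genes called by these 2 tools are not given here. The median log2 difference of the 10 regulators was 0.04, atrial minus ventricular, against -0.01 for all tested genes. The median of its absolute value was 0.194 against 0.256 for all tested genes. All 10 differences were under 0.5, as were those of 72.8% of all tested genes.

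**Figure D1:**
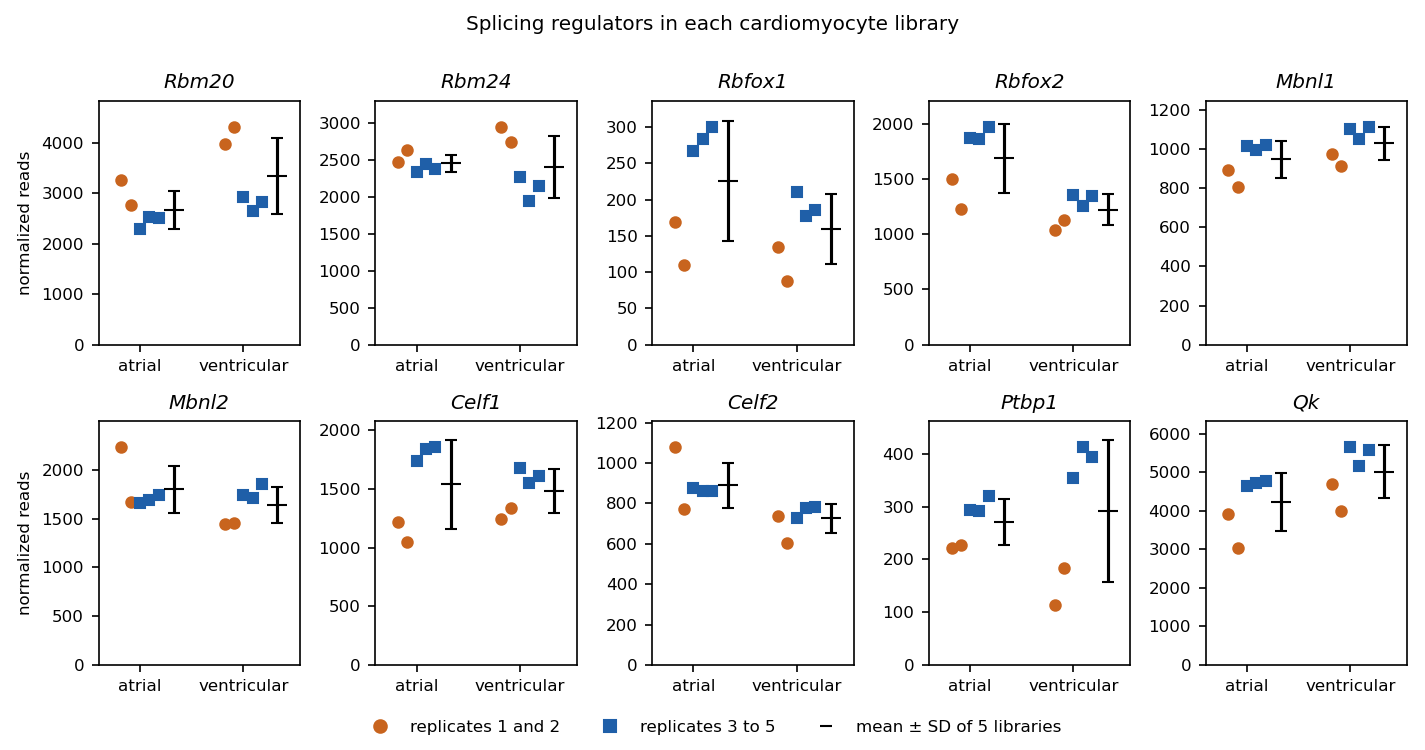
Normalized reads of the 10 splicing regulators in each library, atrial left and ventricular right in each panel. Circles are replicates 1 and 2, squares are replicates 3 to 5, and black bars are the mean ± SD of 5 libraries. In all 10 panels the ranges of the chambers overlap, and in most panels circles and squares of the same chamber stand apart.

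Pairing the libraries by replicate number changed this count. With the replicate number as a block, limma called 5 of 10 regulators, against 32.3% of all tested genes. Rbfox1, Rbfox2 and Celf2 were higher in atrial cells and Rbm20 and Qk were higher in ventricular cells. With library set as a covariate the same 5 were called, against a background of 31.8%. The direction of the difference was the same in 5 of 5 same-numbered pairs for 6 regulators, these 5 and Mbnl1, which was lower in atrial cells. Over all tested genes, 40.9% had 1 direction in 5 of 5 pairs.

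Rbm20, which blocks the inclusion of titin exons, was the lower in atrial libraries in each same-numbered pair. Its values in atrial replicates 1 to 5 were 3259, 2764, 2285, 2536 and 2511 normalized reads, and those in ventricular replicates 1 to 5 were 3975, 4317, 2932, 2652 and 2828. In both chambers replicates 1 and 2 were the highest libraries, and the ranges overlapped since atrial replicates 1 and 2 reached into the span of ventricular replicates 3 to 5 or above it. The means were 2671 ± 370 in atrial and 3341 ± 752 in ventricular libraries (SD, n = 5 each), a ratio of 0.799. The log2 difference was -0.31 ± 0.16 (SE), with a 95% interval of -0.67 to 0.06 and a limma adjusted p of 0.283. With the replicate block the SE was 0.09 and the adjusted p 0.0285.

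Rbm24, which promotes the inclusion of muscle-specific exons, had a mean in atrial libraries that was nearly that in ventricular libraries. Atrial replicates 1 to 5 held 2463, 2636, 2336, 2448 and 2374 normalized reads, and ventricular replicates 1 to 5 held 2941, 2737, 2261, 1943 and 2139. The atrial values were close together and lay within the range of the ventricular ones, whose replicates 1 and 2 were the highest of all 10. Means were 2451 ± 116 in atrial and 2404 ± 419 in ventricular libraries (SD, n = 5 each), and the log2 difference was 0.04 ± 0.13 (SE; 95% interval -0.24 to 0.33; limma adjusted p = 0.901). The difference pointed to ventricular cells in replicates 1 and 2, at -0.16, and to atrial cells in replicates 3 to 5, at 0.18.

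Both Rbfox genes, whose proteins bind UGCAUG and promote or block an exon depending on the side on which they bind, had higher means in atrial libraries. Rbfox1 held 169.6, 109, 266, 284 and 299.9 normalized reads in atrial replicates 1 to 5, and 135, 87.7, 210.1, 177 and 186 in ventricular replicates 1 to 5. Each atrial library exceeded the ventricular library of its number, and in both chambers replicates 3 to 5 were higher than replicates 1 and 2. The means were 226 ± 82.5 in atrial and 159 ± 48.3 in ventricular libraries (SD, n = 5 each), a ratio of 1.42, and the log2 difference was 0.47 ± 0.32 (SE; 95% interval -0.23 to 1.17; limma adjusted p = 0.418). The difference was 0.27 without ventricular replicate 2 and 0.71 without atrial replicate 2. With the replicate block the adjusted p was 0.00658.

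Rbfox2, the more abundant of the Rbfox genes, came nearest to the threshold. It held 1494, 1229, 1873, 1859 and 1967 normalized reads in atrial replicates 1 to 5, and 1038, 1124, 1356, 1252 and 1339.9 in ventricular replicates 1 to 5. Of the atrial libraries 4 exceeded every ventricular library, and atrial replicate 2 fell within the ventricular range. The means were 1684 ± 312 in atrial and 1222 ± 138 in ventricular libraries (SD, n = 5 each), a ratio of 1.38. The log2 difference was 0.45 ± 0.15 (SE; 95% interval 0.12 to 0.78), with a limma p of 0.0123 before and 0.0728 after adjustment. The adjusted p was 0.00331 with the replicate block and 0.0159 without atrial replicate 2, and edgeR gave 0.0521. Over the 10 leave-one-out fits it was 0.0159 to 0.172.

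The Mbnl genes, whose zinc-finger proteins promote adult exon choices as muscle matures, had means of opposite order. Mbnl1 held 891, 806, 1017, 995 and 1022 normalized reads in atrial replicates 1 to 5, and 972, 912, 1099, 1049 and 1111 in ventricular replicates 1 to 5. Each atrial library was below the ventricular library of its number, and in both chambers replicates 3 to 5 were higher than replicates 1 and 2. The means were 946 ± 94.7 in atrial and 1029 ± 85.4 in ventricular libraries (SD, n = 5 each), and the log2 difference was -0.12 ± 0.11 (SE; limma adjusted p = 0.567; 0.144 with the replicate block). Without atrial replicate 2 it was -0.066. Mbnl2 held 2230.2, 1674, 1656, 1688 and 1745 normalized reads in atrial replicates 1 to 5, and 1443, 1455, 1737, 1713 and 1859 in ventricular replicates 1 to 5. Atrial replicate 1 stood far above the other 9 libraries, which ran together. Mbnl2 averaged 1799 ± 244 in atrial and 1641 ± 184 in ventricular libraries (SD, n = 5 each), and its log2 difference was 0.13 ± 0.12 (SE; limma adjusted p = 0.605), with 0.42 in replicates 1 and 2 and -0.06 in replicates 3 to 5. Without atrial replicate 1 it was 0.05, and without ventricular replicate 1 it was 0.085.

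Of the Celf genes, whose proteins favour fetal exon choices in striated muscle, Celf2 had the higher mean in atrial libraries and Celf1 nearly the same mean in both. Celf1 held 1216, 1049, 1734, 1838 and 1854 normalized reads in atrial replicates 1 to 5, and 1242, 1341, 1679, 1546 and 1607 in ventricular replicates 1 to 5. Its libraries were ordered by library set, with replicates 1 and 2 of both chambers at the bottom. The means were 1538 ± 378 in atrial and 1483 ± 185 in ventricular libraries (SD, n = 5 each), with a log2 difference of 0.02 ± 0.18 (SE; 95% interval -0.37 to 0.42; limma adjusted p = 0.963). Celf2 held 1077, 770.1, 874, 860.3 and 860.5 normalized reads in atrial replicates 1 to 5, and 737, 604, 729, 775 and 781 in ventricular replicates 1 to 5. Only atrial replicate 2 fell within the ventricular range. The Celf2 means were 888 ± 113 in atrial and 725 ± 71.3 in ventricular libraries (SD, n = 5 each), a ratio of 1.22. Its log2 difference was 0.29 ± 0.12 (SE; 95% interval 0.03 to 0.55), with a limma p of 0.0331 before and 0.145 after adjustment, and an adjusted p of 0.0217 with the replicate block.

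Qk, the quaking gene, encodes an RNA-binding protein of splicing and circular RNA formation, and was the lower in atrial libraries in each same-numbered pair. It held 3916, 3024, 4640.4, 4722 and 4777 normalized reads in atrial replicates 1 to 5, and 4685, 3999.8, 5641, 5148 and 5582 in ventricular replicates 1 to 5. The chambers overlapped only through the library sets, since atrial replicates 3 to 5 lay above ventricular replicate 2 and around ventricular replicate 1. The means were 4216 ± 752 in atrial and 5011 ± 684 in ventricular libraries (SD, n = 5 each), a ratio of 0.841, and the log2 difference was -0.26 ± 0.16 (SE; 95% interval -0.61 to 0.09; limma adjusted p = 0.358). Without atrial replicate 2 the difference was -0.14. With the replicate block the adjusted p was 0.0139.

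Ptbp1, the polypyrimidine tract-binding protein that blocks many exons and declines as muscle and nerve cells differentiate, had no steady direction. It held 221, 227, 294, 292 and 319 normalized reads in atrial replicates 1 to 5, and 114, 183, 354, 412 and 394 in ventricular replicates 1 to 5. The ventricular libraries held both the lowest values, in replicates 1 and 2, and the highest, in replicates 3 to 5, with every atrial library between them. Means were 271 ± 43.9 in atrial and 291 ± 134 in ventricular libraries (SD, n = 5 each), with a log2 difference of 0.04 ± 0.34 (SE; 95% interval -0.70 to 0.78; limma adjusted p = 0.969). The mean on the log2 scale was the higher in atrial libraries while the mean of normalized reads was the higher in ventricular libraries. The sign also turned under other settings, to -0.13 with edgeR and -0.12 with DESeq2, and it was -0.26 without ventricular replicate 1.

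The chamber difference was then taken within each library set. Within replicates 3 to 5, 8 of 10 regulators were called by limma, against 52.8% of all tested genes, and the values of the chambers did not overlap for 9 of 10, all but Mbnl2, against 58.7% of all tested genes. Within replicates 1 and 2, 0 of 10 were called, against 5.14% of all tested genes. There 1 passed an unadjusted p under 0.05, for which the share of all tested genes is not given here. The p-values within replicates 3 to 5 rest on 3 against 3 libraries, which the labels do not say came from separate animals. In replicates 3 to 5, Rbfox1 was higher in atrial cells by 0.57 ± 0.08 on the log2 scale (SE; adjusted p = 8.85e-07) and Rbfox2 by 0.53 ± 0.06 (adjusted p = 7.09e-09). Celf2, Rbm24 and Celf1 were higher in atrial cells by 0.18, 0.18 and 0.17, with adjusted p of 0.00734, 0.0144 and 0.0142. Ptbp1, Qk and Rbm20 were lower in atrial cells, with log2 differences of -0.36, -0.21 and -0.20 and adjusted p of 0.000118, 0.00282 and 0.00617. Mbnl1 at -0.10 and Mbnl2 at -0.06 were not called, with adjusted p of 0.118 and 0.381. In replicates 1 and 2 the log2 differences were 0.63 for Ptbp1, 0.45 for Celf2, 0.42 for Mbnl2, 0.33 for Rbfox2 and 0.32 for Rbfox1, and -0.46 for Rbm20, -0.33 for Qk, -0.19 for Celf1, -0.16 for Rbm24 and -0.15 for Mbnl1. The sign was opposite between the sets for Ptbp1, Mbnl2, Celf1 and Rbm24, and the same for the other 6.

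**Figure D2:**
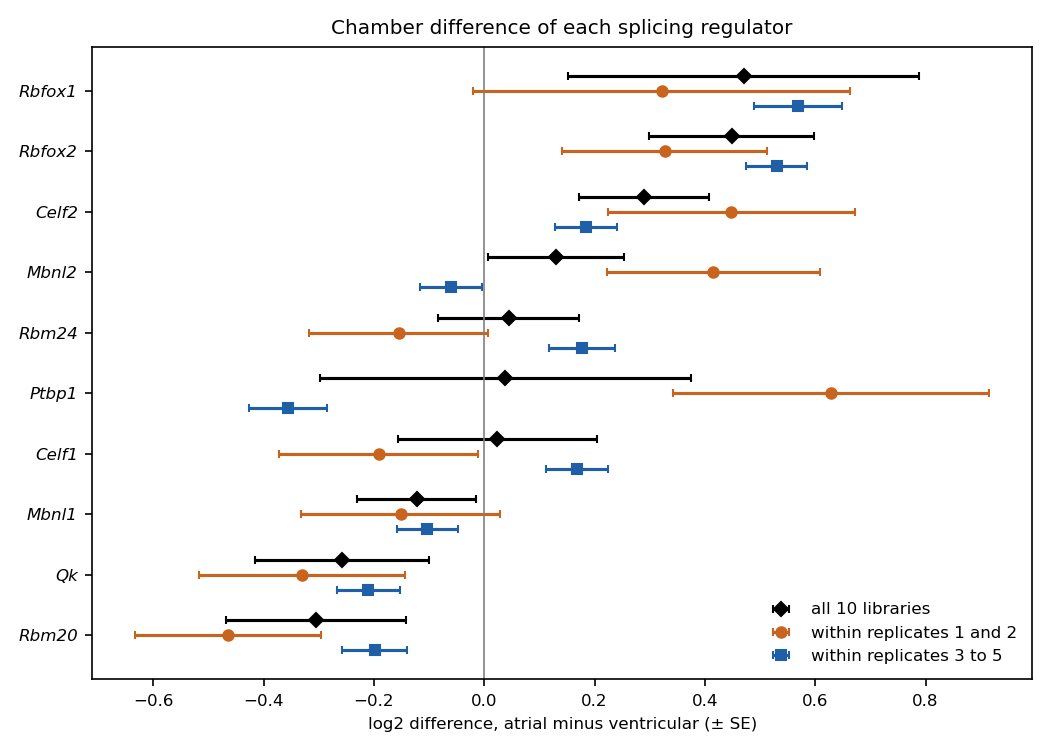
Log2 difference, atrial minus ventricular, of each regulator from all 10 libraries (diamonds), replicates 1 and 2 (circles) and replicates 3 to 5 (squares). Bars are ± SE. Rbfox1, Rbfox2 and Celf2 lie right of 0 in all 3 fits, Mbnl1, Qk and Rbm20 lie left of 0 in all 3, and Ptbp1 shows the widest gap between the sets, at 0.63 and -0.36.

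Whether the chamber difference was unequal between the library sets was tested directly, as the interaction of chamber and set. Of the 10 regulators 1 was called, Ptbp1, against 5.21% of all tested genes. Its chamber difference in replicates 3 to 5 minus that in replicates 1 and 2 was -0.99 ± 0.24 on the log2 scale (SE; limma adjusted p = 0.0432). The call is near the threshold, and 0 regulators were called when no filter on low values was used. The other 9 did not pass, with differences of -0.48 for Mbnl2, 0.36 for Celf1 and 0.33 for Rbm24 at adjusted p of 0.116, 0.137 and 0.149.

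The library sets stood farther apart than the chambers for 7 of the 10 regulators on the log2 scale. The share of all tested genes for which this held is not given here, so the count is not particular to the regulators. With chamber as a covariate, 8 of 10 regulators differed between replicates 3 to 5 and replicates 1 and 2 (limma, adjusted p at most 0.05), against 52.7% of all tested genes. Rbfox1 and Ptbp1 were higher in replicates 3 to 5 by 0.93 ± 0.15 and 0.92 ± 0.19 on the log2 scale (SE; adjusted p = 0.000324 and 0.00188). Celf1, Qk, Rbfox2 and Mbnl1 were higher by 0.50, 0.39, 0.39 and 0.23. Rbm20 and Rbm24 were lower in replicates 3 to 5, at -0.43 and -0.26 (adjusted p = 0.000843 and 0.0172). Mbnl2 and Celf2 did not pass, at 0.05 and 0.06 (adjusted p = 0.714 and 0.660). The sets also differ in depth and in the share of ribosomal RNA, and these cannot be told apart from whatever else differs between the sets.

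Ptbp1 moved with the sum of 8 fibroblast markers. The summed level of Col1a1, Col1a2, Col3a1, Dcn, Lum, Pdgfra, Tcf21 and Postn in atrial replicates 1 to 5 was 21312, 28679, 36361, 34320 and 34999 normalized reads, and in ventricular replicates 1 to 5 it was 9165, 20067, 48548, 63474 and 56015. The libraries stood in the same order for Ptbp1 as for this sum, except that atrial replicates 3 and 5 changed places. Col3a1, with a mean of 13539 normalized reads over the 10 libraries, weighed most in the sum, and Tcf21, with 141, least. Ptbp1 was not compared with each marker singly, and 1 of the 8 had the higher mean in atrial libraries. The other regulators and the other marker lists were not compared in this way. The part of fibroblast markers in the Ptbp1 result was not tested, and in such bulk samples more cells of a type and more RNA per cell cannot be told apart. The gene whose log2 values over the 10 libraries were most like those of Ptbp1 was Mmp14, a membrane-bound matrix metalloproteinase, with a Pearson correlation of 0.994, given as a description of libraries that share chamber and library set.

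**Figure D3:**
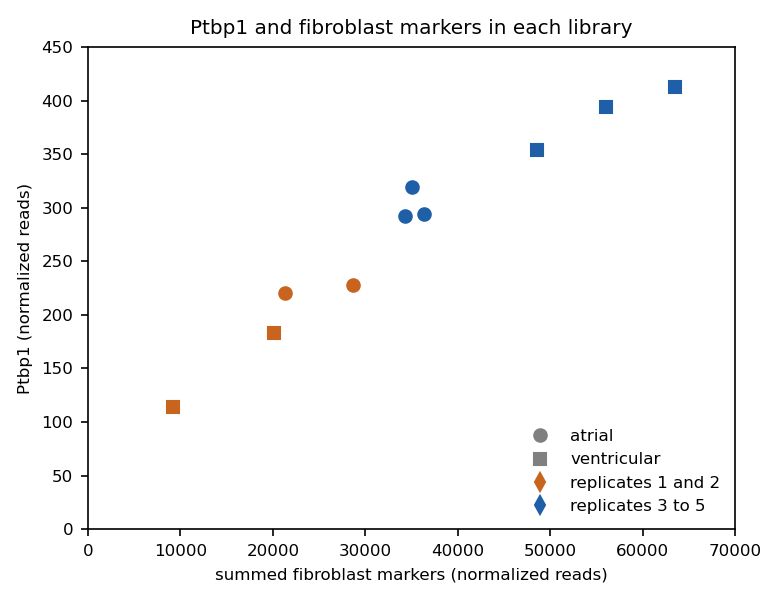
Ptbp1 against the summed level of 8 fibroblast markers, both in normalized reads, in each of the 10 libraries. Circles are atrial and squares ventricular, orange marks replicates 1 and 2 and blue marks replicates 3 to 5. The ventricular libraries lie at both ends, at 9165 to 20067 and 48548 to 63474 on the marker axis, with the atrial libraries between 21312 and 36361.

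By the same measure, over the same 10 libraries, the nearest genes of the other regulators were as follows. Rbm20 was most like Thoc6, with a Pearson correlation of 0.979. Rbm24 was most like Mcoln1 at 0.973, Rbfox1 like Tab3 at 0.991, Rbfox2 like Aff2 at 0.982, and Mbnl2 like Actn1 at 0.941. Celf1 was most like Zfp329 at 0.982 and Celf2 like Pcdhga6 at 0.943. Mbnl1 and Qk were both most like Lpl, at 0.991 and 0.988. Qk had a regulator, Mbnl1, among its 3 most alike genes, at 0.986, and no other regulator did. Between regulators the lowest correlation was that of Rbm24 with Ptbp1, at -0.933. These values rest on the division into library sets as well as on chamber, and say nothing of shared control.

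The balance within each pair of relatives does not depend on how a library was scaled, and was compared as log2 of the first gene over the second, with 1 normalized read added to each. For Mbnl1 over Mbnl2 it was -1.32, -1.05, -0.70, -0.76 and -0.77 in atrial replicates 1 to 5, and -0.57, -0.67, -0.66, -0.71 and -0.74 in ventricular replicates 1 to 5. Atrial libraries were the lower in 5 of 5 pairs, by little in replicates 3 to 5. Mbnl1 held 28.5% to 38.1% of the reads of the pair in atrial and 37.4% to 40.3% in ventricular libraries. The means were -0.92 ± 0.26 in atrial and -0.67 ± 0.06 in ventricular libraries (SD, n = 5 each), a difference of -0.25 with an exact two-sided permutation p of 0.0238, which was 0.0714 after adjustment over the 3 pairs. Replicates 1 and 2 alone gave -0.57, and replicates 3 to 5 gave -0.04. The difference was -0.15 without atrial replicate 1, and -0.31 without atrial replicate 3, where the adjusted exact permutation p was 0.0238. In every other leave-one-out fit the adjusted exact permutation p was 0.0714 to 0.357. With labels permuted only within library sets it was 0.15.

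Rbfox1 over Rbfox2 averaged -2.97 ± 0.33 in atrial and -2.99 ± 0.39 in ventricular libraries (SD, n = 5 each), a difference of 0.02 (exact permutation p = 0.929, also after adjustment). Rbfox1 held 8.17% to 13.3% of the reads of the pair in atrial and 7.24% to 13.4% in ventricular libraries, so the ranges nearly coincided. Celf1 over Celf2 averaged 0.76 ± 0.43 in atrial and 1.03 ± 0.17 in ventricular libraries (SD, n = 5 each), a difference of -0.27 (exact permutation p = 0.262, adjusted 0.393), which was -0.12 without atrial replicate 1. Replicates 1 and 2 alone gave -0.64, and replicates 3 to 5 gave -0.02. Celf1 held 53.0% to 68.3% of the reads of its pair in atrial and 62.8% to 69.7% in ventricular libraries.

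Levels of different regulators were compared per length, as normalized reads per kb of all annotated exons. Rbm24 was the highest, with means of 702 in atrial and 689 in ventricular libraries. Rbm20 followed at 393 ± 54.5 in atrial and 492 ± 111 in ventricular libraries and Qk at 296 ± 52.8 in atrial and 352 ± 48.0 in ventricular libraries (SD, n = 5 each). In atrial libraries Rbm24 ran from 669 to 755, Rbm20 from 337 to 480 and Qk from 212 to 335, with no overlap. In ventricular libraries Rbm24 ran from 557 to 842, Rbm20 from 391 to 636 and Qk from 281 to 396, so each overlapped the next. Rbfox2, Celf1 and Mbnl2 came next, with atrial means of 207, 182 and 149.97 and ventricular means of 150.1, 176 and 137, and overlapping ranges of neighbours in both chambers. Lowest were Ptbp1, Rbfox1, Mbnl1 and Celf2, at 57.1, 51.3, 50.6 and 34.3 in atrial and 61.5, 36.2, 55.0 and 28.0 in ventricular libraries. Neighbours among these 4 overlapped, except Mbnl1 and Celf2 in atrial and Mbnl1 and Rbfox1 in ventricular libraries. The annotated exons of Mbnl1 and Celf2 sum to 18717 and 25884 bases, more than any other of the 10, and a cell need not use them all. Per kb of the transcript with the longest coding sequence, Rbm24, Rbm20 and Qk kept the first 3 places and Mbnl2 came next in both chambers. The order below Mbnl2 changed, with Ptbp1 last in atrial and Celf2 last in ventricular libraries.

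**Figure D4:**
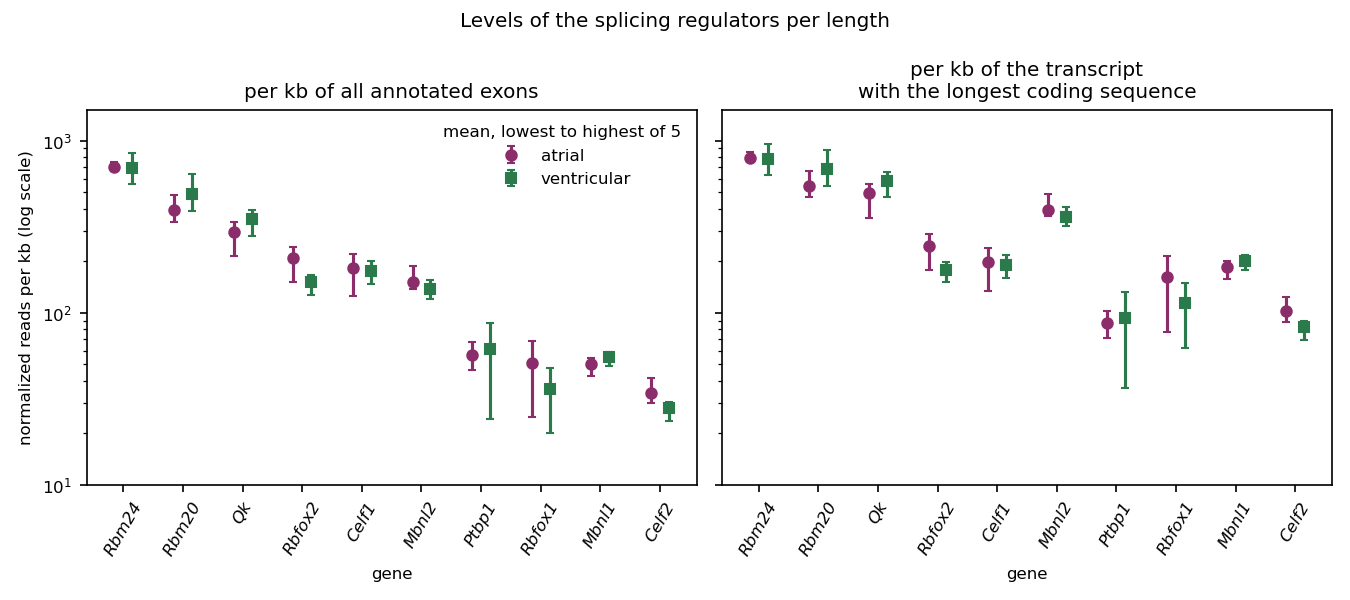
Normalized reads per kb of the 10 regulators on a log axis, by 2 measures of length. Circles are the atrial and squares the ventricular mean, and bars run from the lowest to the highest of 5 libraries. Rbm24, Rbm20 and Qk stand highest in both chambers by both measures.

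Several other genes of the same families were low. Of 9 listed, 5 reached the filter, a mean of at least 10 normalized reads, and Rbfox3, Celf3, Celf5 and Celf6 did not. Their highest values in any library were 8.28, 23.4, 17.3 and 9.65 normalized reads. Limma called 2 of the 5, 1 in each direction, against 14.7% of all tested genes. Both calls were lost without atrial replicate 2, 3, 4 or 5 or without ventricular replicate 4. The Celf4 call was also lost without ventricular replicate 1 or 2, and the Mbnl3 call without ventricular replicate 3 or 5. Celf4, a brain-enriched relative of Celf1, held 26.2 to 57.6 in atrial and 9.75 to 28.4 in ventricular libraries, with a log2 difference of 1.19 ± 0.33 (SE; adjusted p = 0.0342). Mbnl3, which is known mainly from muscle precursor cells and placenta, held 13.0 to 26.2 in atrial and 19.5 to 101 in ventricular libraries, with -1.58 ± 0.44 (SE; adjusted p = 0.0335). Ptbp2, Ptbp3 and Rbm38 were not called, with log2 differences of 0.34, 0.27 and -0.04. Their atrial ranges were 365 to 851, 389 to 442 and 319.6 to 531, and their ventricular ranges were 299.0 to 564, 212 to 475 and 249 to 584.

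Of 119 other listed genes of RNA splicing 107 were tested, and limma called 6, against 14.7% of all tested genes, with 3 toward each chamber. The log2 differences of the 107 had a median of -0.12. The replicate block raised this to 29 genes, against 32.3% of all tested genes, with 7 in the atrial and 22 in the ventricular direction. Within replicates 3 to 5 there were 46 calls, against 52.8% of all tested genes, 12 toward atrial and 34 toward ventricular cells. The split of all tested genes by direction in these 2 fits is not given here. No lean toward a chamber is therefore read from these counts. Among 27 tested other tissue-restricted or general regulators, Elavl4 and Rbpms were called higher in atrial cells. Elavl4, a neuronal RNA-binding protein, held 37.2, 21.6, 34.7, 39.5 and 32.2 normalized reads in atrial replicates 1 to 5, and 6.92, 2.44, 4.34, 8.02 and 4.94 in ventricular replicates 1 to 5. The values of ventricular replicates 1 and 2 lie under the 3 reads that a 0 allows. The chambers did not overlap, and the log2 difference was 2.48 ± 0.32 (SE; adjusted p = 0.000456). The 8 neuronal markers summed to at most 93.8 in any library, and their part in the Elavl4 result was not tested.

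Rbpms, an RNA-binding protein of cardiac and smooth muscle splicing, held 1378, 1157, 1707, 1762 and 1749 normalized reads in atrial replicates 1 to 5, and 827, 741, 1169.9, 961 and 1033 in ventricular replicates 1 to 5. Only atrial replicate 2 fell within the ventricular range, and the log2 difference was 0.71 ± 0.16 (SE; adjusted p = 0.0133). The 8 smooth muscle and pericyte markers, whose sums are given above, were not uniform. Acta2 averaged 1593 in atrial and 8129 in ventricular libraries, and Cnn1 averaged 698 in atrial and 174 in ventricular libraries. Their part in the Rbpms result was not tested. Khdrbs3, a relative of Sam68, averaged 287 ± 38.2 in atrial and 437 ± 30.6 in ventricular libraries (SD, n = 5 each) with no overlap, at -0.61 ± 0.12 (SE; adjusted p = 0.00489).

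Of 12 tested SR proteins, which promote exon inclusion, Srsf2 averaged 379 ± 57.9 in atrial and 531 ± 53.1 in ventricular libraries (SD, n = 5 each), with no overlap and a log2 difference of -0.49 ± 0.12 (SE; adjusted p = 0.0204). It was the 1 SR protein called by limma and by edgeR, while DESeq2 called 3 and the block 6, of which 5 were higher in ventricular cells. The share of all tested genes called by DESeq2 is not given here. Equal totals, leaving out both replicates 1, and leaving out atrial replicate 3, 4 or 5 each gave 0 calls among SR proteins, with adjusted p for Srsf2 of 0.245, 0.053, and 0.0552 to 0.0605. Equal totals without Rn45s and Lars2 gave a limma adjusted p of 0.035 for Srsf2. Of 21 tested hnRNPs, proteins that coat precursor RNA and often block exons, limma and edgeR and DESeq2 called 0. At an unadjusted p under 0.05 limma passed 0, where it passed 3245 of 12422 tested genes. The block called 6, of which 5 were higher in ventricular cells. The 2 with the smallest p were Hnrnph1 at -0.29 and Hnrnpa1 at -0.64, with adjusted p of 0.242 and 0.453. Without atrial replicate 2 the Hnrnpa1 difference was -0.18. Of 8 SR protein kinases all 3 tools called 0, limma passed 0 at an unadjusted p under 0.05, and the smallest p belonged to Clk3 at 0.23 and Prpf4b at -0.21 (adjusted p = 0.210 and 0.259). Of 34 core spliceosome genes all 3 tools called 0 and limma passed 3 at an unadjusted p under 0.05. The block called 7 and replicates 3 to 5 called 15 of the 34, all higher in ventricular cells, where the shares of all tested genes called in both directions were 32.3% and 52.8%. For the block and for replicates 3 to 5 the shares by direction are not given here. The directions of these SR protein, hnRNP and core spliceosome calls are therefore descriptions only. Snrpb and Cdc5l, at -0.30 and -0.27, had adjusted p of 0.106 and 0.162, and 0.0188 and 0.0196 with the block.

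**Figure D5:**
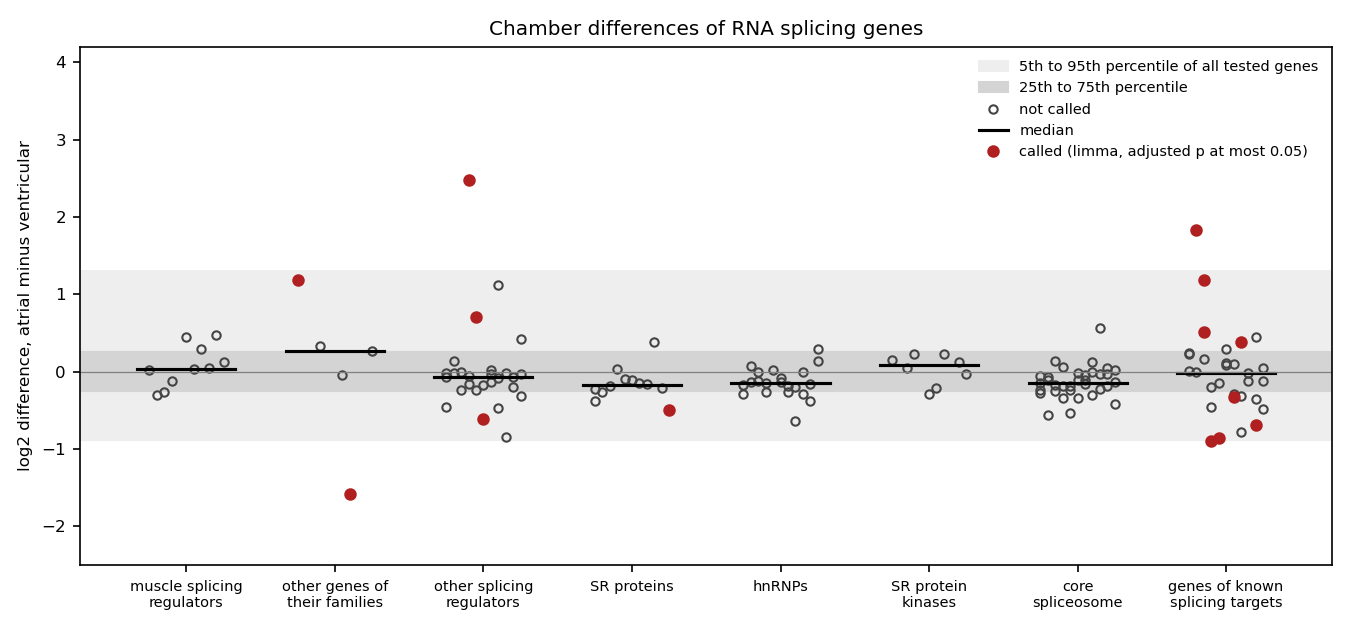
Log2 differences, atrial minus ventricular, of the 10 regulators and of 7 other lists of genes, each point a tested gene, red where limma called it and with a bar at the list median. Grey bands hold the middle of all tested genes. All 10 regulators lie between -0.31 and 0.47, and the called genes farthest from 0 are Elavl4 at 2.48 and Pdlim3 at 1.84.

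Genes whose exons the regulators are known to control were also read as whole genes, which shows their amount and not their exon choice. Of 30 listed, limma called 8, against 14.7% of all tested genes, with 4 toward each chamber, and the median over the list was -0.01 on the log2 scale. When libraries were scaled to equal totals 3 were called, all toward atrial cells. Leaving out atrial replicate 3, 4 or 5 or ventricular replicate 3 left 4, with 2 toward each chamber, and leaving out ventricular replicate 2 or 5 left 5. Tpm2, the beta-tropomyosin gene, averaged 1755 ± 164 in atrial and 767 ± 50.1 in ventricular libraries (SD, n = 5 each; log2 difference 1.19 ± 0.10 SE, adjusted p = 2.6e-05). Pdlim3, an actinin-associated LIM protein of the Z-disc, averaged 709 ± 238 in atrial and 198 ± 74.0 in ventricular libraries (log2 difference 1.84 ± 0.26, adjusted p = 0.000868). Neo1, the netrin receptor neogenin, was higher in atrial cells by 0.52 ± 0.15 (adjusted p = 0.0449). That call was lost without any 1 of atrial replicates 3 to 5 or ventricular replicates 2 to 5, at adjusted p of 0.0863 to 0.113.

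Lmo7, Cacna1c and Fhod3 were lower in atrial cells under the deposited scaling. Under equal totals none of these 3 was called, with limma adjusted p of 0.0634, 0.0731 and 0.101. Those totals include Rn45s, whose share differed between the library sets. With Rn45s and the gene Lars2 left out of the totals all 3 were called, at 0.00298, 0.0204 and 0.0108. The Neo1 and Mbnl3 calls, kept under equal totals, were lost there, at 0.0616 and 0.0534. Lmo7, a LIM-domain protein of cell junctions, averaged 3829 ± 236 in atrial and 7113 ± 1929 in ventricular libraries (SD, n = 5 each; log2 difference -0.86 ± 0.17 SE, adjusted p = 0.00629). Cacna1c, the L-type calcium channel pore, averaged 1150.2 ± 469 in atrial and 2053 ± 416 in ventricular libraries (log2 difference -0.89 ± 0.24, adjusted p = 0.0268). The Cacna1c call was lost without any 1 of atrial replicates 2 to 5 or ventricular replicates 1 and 3, at adjusted p of 0.053 to 0.0679. Fhod3, a formin of the sarcomere, averaged 1919 ± 361 in atrial and 3111 ± 663 in ventricular libraries (log2 difference -0.69 ± 0.17, adjusted p = 0.0176). Titin, the best-known target of Rbm20 and named here after its values were seen, differed between libraries far more than between chambers. Ttn held 373180.0, 89968, 25235, 30391 and 24204 normalized reads in atrial replicates 1 to 5, and 279315, 109049, 27091, 22745 and 24614 in ventricular replicates 1 to 5. Replicate 1 of each chamber held the most, and the log2 difference was 0.09 ± 0.91 (SE; adjusted p = 0.973). The Rbm20 targets Camk2d and Ldb3, named likewise, were at 0.05 and -0.01 (adjusted p = 0.877 and 0.985).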

How the data were processed

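Gene-level signal was deposited for 10 libraries, each gene's reads over a per-library DESeq2 size factor that the authors computed, per the file headers. Total RNA was extracted with Trizol and made into libraries with ScriptSeq v2, per the labels' protocols. Trimmomatic, HISAT2 and featureCounts were run on GRCm38 (mm10), per the submitters' processing notes. Versions, annotation and strand setting were not given there. Dividing by the smallest step gave whole reads for 100% of values (tolerance 0.01). A value of 0 allows up to 3 reads, 1.70 to 10.4 normalized reads by library, counting error only, since reads are not independent molecules.

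The 12422 genes averaging at least 10 normalized reads were fitted with limma 3.58.1 (R 4.3.3, trend and robust) on log2(value + 1), two-sided, with Benjamini-Hochberg adjustment over all of them at 0.05. Such log2 differences understate changes of genes with few reads. Alternatives were edgeR 4.0.16 and DESeq2 1.42.0 on the recovered reads, other pseudocounts, filters and scalings, library set, a replicate block and leave-one-out fits. Deviations of same-numbered libraries from their group means correlated at 0.556 to 0.637, all above 0.1, so the numbers were taken to pair the libraries. Differently numbered libraries within replicates 3 to 5 correlated as highly, at 0.560 to 0.636, so there the numbers were not told apart from the library set. Balances of relatives were tested by exact permutation over 252 labelings.

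The members and all gene lists were chosen with earlier results of these data known, so counts over a list are descriptions. Named genes are all 10 members. Of each other list they are up to 3 called genes per direction with the largest differences, or the 2 smallest p where none was called. For each member the 3 most alike genes were taken by Pearson correlation. GENCODE M21 gave positions, lengths and sequences, and matched 24366 of 25239 symbols.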

Additional observations from a re-analysis of the deposited data

Results flagged for a closer look

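In a group of 5 libraries, a library was singled out where its gap to the nearest other library exceeded 0.71 of the group's range. Of 62 groups checked 7 had such a library. Chance gives about 1 in 20 where all 5 libraries are alike, but each group here mixes the 2 library sets, so that rate does not apply. Mbnl2 stood at 2230.2 normalized reads in atrial replicate 1, with the other atrial libraries at 1656 to 1745. The log2 ratio of Rbfox1 to Rbfox2 was -3.66 in ventricular replicate 2, with the others at -2.93 to -2.69. Cacna1c stood at 1965 normalized reads in atrial replicate 1, with the others at 764 to 1059. Srsf2 stood at 481 in atrial replicate 2 (others 341 to 363), Tpm2 at 1468 in atrial replicate 2 (others 1779 to 1861), Cdc5l at 702 in ventricular replicate 2 (others 557 to 588) and Pdlim3 at 329 in ventricular replicate 2 (others 149 to 179). All 7 libraries are replicates 1 or 2.

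Of 28 named genes, 2 had a chamber difference that was unequal between the library sets by limma's interaction test. For Ptbp1 the difference in replicates 3 to 5 minus that in replicates 1 and 2 was -0.99 ± 0.24 on the log2 scale (SE; adjusted p = 0.0432), with opposite signs in the sets. For Neo1 it was 0.62 ± 0.14 (adjusted p = 0.0369), with 0.77 in replicates 3 to 5 and 0.15 in replicates 1 and 2.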

How the results depend on the processing

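The count of the 10 regulators called was 0 in the unblocked limma fit with all libraries. It was 1 under equal totals and 1 with DESeq2, 5 with the replicate block, 5 with library set as a covariate, 8 within replicates 3 to 5, and 0 to 1 when a library was left out. The call under equal totals was Rbfox2, at a limma adjusted p of 0.0104. With Rn45s and Lars2 left out of the totals its limma adjusted p was 0.113. All tested genes gave 1824, and 1553 under equal totals, and their DESeq2 count is not given here. They gave 4017 with the block, 3955 with the covariate and 6561 within replicates 3 to 5. Within replicates 1 and 2 they gave 638, and in leave-one-out fits 1365 to 1938. The other splicing genes gave 6, and 3 at a mean of at least 50, 29 with the block, 26 with the covariate and 46 within replicates 3 to 5. They gave 0 within replicates 1 and 2, and 3 to 6 in leave-one-out fits, with 3 without atrial replicate 3, 4 or 5. At an unadjusted p under 0.05, 12 passed within replicates 1 and 2, where the share of all tested genes is not given here. Fits within a set use fewer libraries. The counts of all tested genes and of the other splicing genes rose within replicates 3 to 5 and fell within replicates 1 and 2. The causes of these changes were not tested. The interaction called 1 regulator, and 0 without a filter, where 23008 genes were tested. Of 250 alternative values for regulators, 212 kept direction and call, 20 were newly called in the same direction and 18 changed sign from an uncalled value, of which 1, Ptbp1 within replicates 3 to 5, was called (adjusted p = 0.000118).

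Rbm24 was -0.16 within replicates 1 and 2 and -0.028 to 0.12 in leave-one-out fits, and Mbnl2 was -0.061 within replicates 3 to 5. Celf1 was -0.017 with upper-quartile scaling, -0.19 within replicates 1 and 2 and -0.053 to 0.15 in leave-one-out fits. Ptbp1 was -0.0022 with upper-quartile scaling, -0.13 with edgeR, -0.12 with DESeq2, -0.36 within replicates 3 to 5, -0.19 without both replicates 1 and -0.26 to 0.20 in leave-one-out fits. The Rbfox balance was -0.0056 within replicates 1 and 2 and -0.15 to 0.15, the Mbnl balance -0.31 to -0.15 and the Celf balance -0.35 to -0.12, in leave-one-out fits. With the block no balance passed: for Mbnl the exact permutation p was 0.0625, the smallest that 5 pairs can give, and with 3 against 3 libraries the smallest is 0.1. Replicate 1 of the ventricular libraries, with 1790402 reads, limits the low genes most.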
